A study of Selaginella kraussiana with 4 samples.

Results

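The microphyll and the stem of Selaginella kraussiana were compared across transcribed loci by RNA sequencing. These are the organs of the series that are not growing tips. S. kraussiana is a lycophyte with a creeping stem, grown here in a greenhouse or growth chamber under long days, and total RNA was extracted from each tissue with Trizol. No mutant, strain or treatment is named, so the libraries differ only in tissue as far as the labels say. The comparison used the libraries labelled leaf and stem, which are 2 of the 4 libraries of the series, 1 for each organ. The study writes of microphyll and stem tissue and of tips of shoot and rhizophore, so the label leaf was taken as the microphyll and the label seedling as the shoot tip. The shoot tip and rhizophore tip libraries served as context. How many plants went into a library, and how microphylls were taken off the stem, is not given in the sources used here.

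Each library has a table of loci with a level in FPKM, sequenced fragments scaled by transcript length in kilobases and by the size of the library. On each contig of the authors' draft genome, loci of the 4 tables sharing 1 bp or more were merged, and the FPKM values of a library inside a merged locus were summed. This gave 31210 merged loci, of which 26055 were at least 300 bp long. The 22325 (71.5%) that also reached an FPKM of 1 in the microphyll or the stem were compared, and these tested loci lay on 19606 contigs. On either side of the length limit, 295 merged loci were 300 to 309 bp long with a median highest FPKM of 12.5, and 276 were 290 to 299 bp long with a median of 12.4. On either side of the level limit, 237 loci had a highest FPKM from 1 to under 1.1 and 246 from 0.9 to under 1. The tables carry no gene names and no strand. The organs could therefore not be checked against marker genes, and each locus is given by its contig and its first and last base on that contig, counted from 1.

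The leaf of a lycophyte, the microphyll, is small and supplied by an unbranched vein, and it is a main site of photosynthesis in the shoot. In Selaginella it also bears a ligule, a small outgrowth at its base. The stem carries the conducting tissue, xylem for water and phloem for sugars, which joins the shoot apices to the rhizophores, the leafless axes that lead to the roots. Both organs come from the shoot apex, so the shoot tip holds young stages of both. In such bulk samples, fewer cells of a type and less RNA per cell cannot be told apart.

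The difference between the organs was log2(FPKM + 1) in the microphyll minus log2(FPKM + 1) in the stem. A locus was called higher in an organ where this difference was at least 2 in its favour, which is 4-fold on that scale and more than 4-fold in FPKM at low levels. Each organ has 1 library, so differences could not be set against replicates and p-values are not given. The tables bound each FPKM below and above. The bounds were read as a 95% interval, which covers the error inside a library and not the variation between plants. If each bound lies 2 Poisson standard deviations from the FPKM, the width gives the number of fragments behind a locus. By this reading the median tested locus rested on 301.8 fragments in the microphyll and 267.3 in the stem. The distance from the FPKM to its bound had a median of 23.4% of the FPKM in the microphyll and 23.6% in the stem for loci from 1 to under 10 FPKM. From 100 to under 1000 FPKM it was 4.53% and 4.60%. The intervals were thus much narrower than a 4-fold difference for most loci. Where the authors' program widened an interval for other reasons, the number of fragments is too low.

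Most loci had similar levels in both organs. Of the tested loci, 12540 (56.2%) differed by less than 1 on the log2(FPKM + 1) scale. The median difference was 0.04, the middle 50% of the loci lay between -0.84 and 0.85, and 5% of the loci lay below -2.52 and 5% above 2.12. Spearman's correlation between the organs was 0.773 across loci, which share their libraries and are not independent replicates. Both libraries listed 19535 (87.5%) of the tested loci, and all 4 libraries listed 18438 (82.6%).

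At the ends of this distribution, more loci were higher in the stem than in the microphyll. There were 1320 loci higher in the microphyll, 5.91% of those tested, and 1871 higher in the stem, or 8.38%. At a difference of at least 3 the numbers were 388 (1.74%) and 736 (3.30%). The stem side exceeded the microphyll side at both limits. With no length limit, or at a difference of at least 1, the microphyll had slightly more, 2743 against 2617 and 4902 against 4883. The numbers also depended on the pseudocount, with 2566 and 2869 at 0.1 and 540 and 895 at 5. Just inside the limit for the microphyll, from 2 to 2.1, were 173 loci, and just outside it, from 1.9 to 2, were 171.

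**Figure D1:**
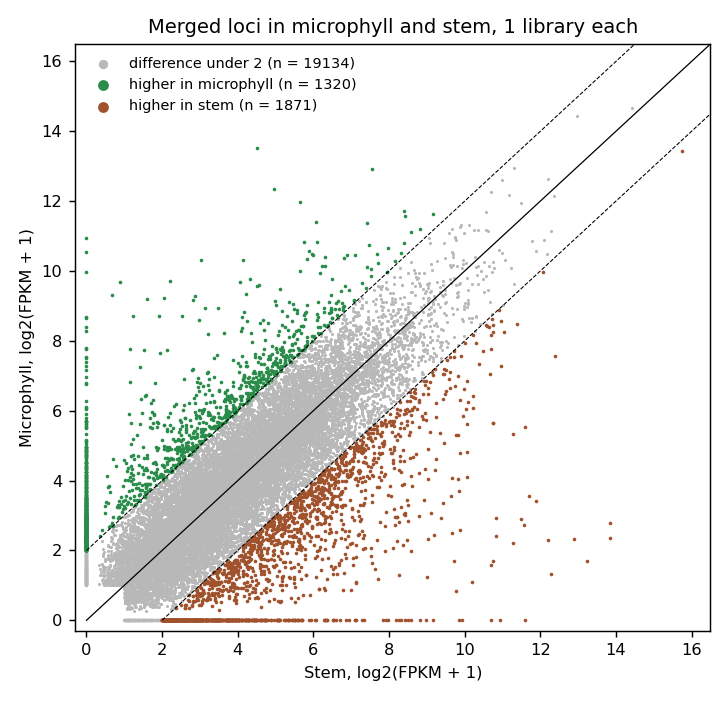
Level of each of the 22325 tested loci in the stem (x axis) and in the microphyll (y axis), both as log2(FPKM + 1), 1 library each. Dashed lines mark a difference of 2; 1320 loci lie above the upper line (green) and 1871 below the lower one (brown), while points on an axis were not listed in one organ.

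The deposited intervals of the organs counted as apart at nearly all called loci. These were 1302 (98.6%) of those higher in the microphyll and 1828 (97.7%) of those higher in the stem. A locus that one organ did not list has no interval there, and counted as apart where the other lower bound was positive. This concerns 538 (40.8%) of the calls for the microphyll and 594 (31.7%) of those for the stem, where no intervals could be compared. The number of fragments gave a stricter reading. It was scaled by the ratio of the library totals, 1.14 for microphyll over stem, taken from 2312 loci of matching length. A locus that a library did not list, or listed with fewer than 11 implied fragments, was set to 11 fragments there. On this scale 601 (45.5%) of the loci higher in the microphyll also differed by at least 2 in the same direction, and 1142 (61.0%) of those higher in the stem. A further 147 (11.1%) and 135 (7.22%) pointed the other way. FPKM and fragments thus parted more often at the loci called for the microphyll.

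Short loci took part in this. A merged locus of 300 bp or more can hold a much shorter deposited locus in one of the libraries, and there a few fragments give a high FPKM. This was so for 249 (18.9%) of the loci higher in the microphyll and 284 (15.2%) of those higher in the stem. A stricter set was therefore formed after the values had been seen. It required the FPKM difference, intervals that lie apart, no deposited locus under 300 bp in either organ, and a fragment difference of at least 2 the same way. It held 557 loci higher in the microphyll, 2.49% of those tested, and 1062 higher in the stem, 4.76%. Of these, 298 (53.5%) and 679 (63.9%) were listed in both organs. At the rest, the interval and length conditions could be applied to the higher organ only. These are called concordant loci in what follows. By the same reading, a widened interval in the higher organ removes a locus from this set, and one in the lower organ makes its fragment difference too large.

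**Figure D2:**
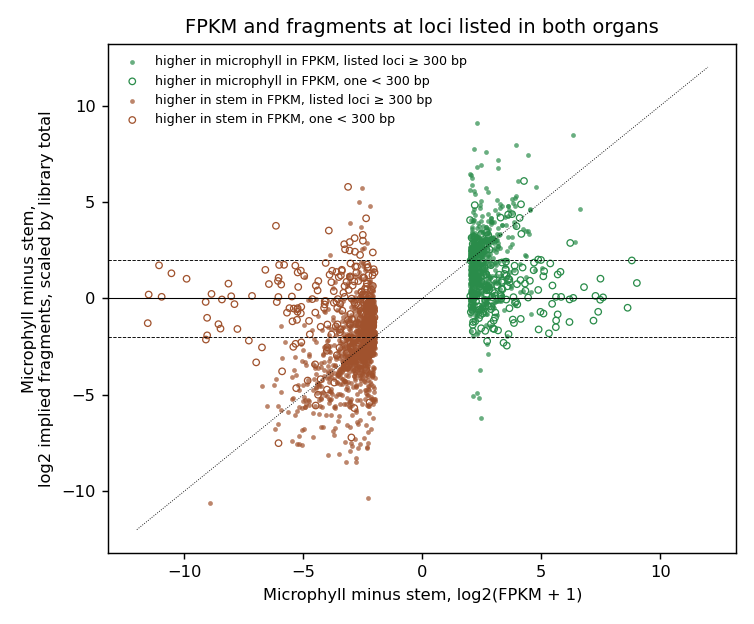
Difference in log2(FPKM + 1) (x axis) and in log2 implied fragments scaled by library total (y axis), both microphyll minus stem, for called loci listed in both organs. Open circles hold a deposited locus under 300 bp in one organ; many of them lie near 0 on the fragment scale at large FPKM differences, while the filled points beyond the dashed lines at 2 and -2 differ the same way on both scales.

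The concordant loci listed in both organs were ranked by the smaller of their FPKM and fragment differences, and the first 8 in each direction are described next. They were picked after their values were seen, so they illustrate the comparison and add no support to it.

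The clearest microphyll locus was on contig 020621, from 16 to 1404. Its FPKM was 4026 (95% interval 4010 to 4043) in the microphyll and 48.8 (44.9 to 52.8) in the stem, an 82.4-fold difference with a range of 75.9 to 90.1 from bound to bound. The shoot tip had 259 and the rhizophore tip 3.22. It rested on 248318 implied fragments, the highest such number among tested loci of the microphyll library. Its deposited locus was 1373 bp long in the microphyll and 472 bp in the stem, so part of the locus went unlisted where the level was low. The locus on contig 043953, from 1 to 2956, was at 216 (201 to 232) in the microphyll and 1.21 (0.944 to 1.47) in the stem. Its shoot tip level was 40.6 and its rhizophore tip level 1.46. Most of its microphyll value came from a deposited locus of 423 bp at 166, inside one of 2956 bp at 50.6. The stem value came from a single deposited locus of 1715 bp. On both contigs the shoot tip thus lay between the organs, and the rhizophore tip was below the stem or close to it.

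At 2 loci of this group the shoot tip reached or passed the microphyll. On contig 024453, from 1 to 356, the microphyll had an FPKM of 1299 (1275 to 1324) and the shoot tip 4204, against 43.5 in the rhizophore tip and 55.9 (50.3 to 61.4) in the stem. On contig 014855, from 3594 to 5890, the microphyll had 521 (516 to 525) and the shoot tip 561, against 100.1 in the rhizophore tip and 31.4 (28.9 to 33.8) in the stem. The high level was thus shared by microphyll and shoot tip, and the rhizophore tip and stem were both low. A neighbour on the same contig 014855, from 143 to 3244, was also higher in these tissues at lower levels, with 56.5 and 83.5 in the microphyll and shoot tip and 7.97 and 15.8 in the rhizophore tip and stem.

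The other 4 were lower in level. On contig 092254, from 3 to 811, the FPKM was 59.1 (56.3 to 61.9) in the microphyll and 1.19 (0.746 to 1.63) in the stem, and on contig 102560, from 3 to 688, 77.6 (69.9 to 85.4) and 2.38 (1.56 to 3.20). On contig 069286, from 4828 to 7149, it was 48.8 (46.9 to 50.7) and 1.28 (0.594 to 1.97), and on contig 093841, from 2 to 501, 38.3 (34.9 to 41.8) and 1.54 (0.613 to 2.47). In the shoot tip these 4 loci had 9.21, 9.44, 6.10 and 1.36 in the same order. The rhizophore tip listed the one on contig 069286 at 2.38 and did not list the other 3. Over all 8 loci the rhizophore tip was below the microphyll by at least 2 at each, and the shoot tip at 6.

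On the stem side the widest gap was on contig 045258, from 397 to 2495. The FPKM was 868 (858 to 878) in the stem and 0.800 (0.465 to 1.14) in the microphyll, a 1084-fold difference with a range of 756 to 1888 from bound to bound. The microphyll value rested on 22.8 implied fragments and the stem value on 31340. The rhizophore tip had 119 and the shoot tip had no locus there. This transcript was thus shared by the stem and the rhizophore tip among the 4 tissues. The locus on contig 099105, from 1 to 836, was the most stem-weighted of the group. It was at 110.0 (104 to 116) in the stem, 4.03 in the rhizophore tip, 1.17 in the shoot tip and 0.828 (0.509 to 1.15) in the microphyll.

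At 3 of these loci both tips were far nearer to the stem than to the microphyll, which stood alone. On contig 048648, from 1 to 646, the FPKM was 789 (775 to 804) in the stem, 777 in the rhizophore tip, 851 in the shoot tip and 10.9 (8.30 to 13.4) in the microphyll. On contig 070069, from 12 to 703, it was 359 (351 to 367), 204, 268 and 6.22 (5.20 to 7.23), and on contig 049639, from 2 to 2492, 140 (134 to 146), 96.3, 65.7 and 1.08 (0.782 to 1.37), in the same order of tissues. These loci were low in the microphyll alone of the 4 tissues. A second locus on contig 048648, from 1761 to 3332, had 12.1 in the stem and 10.8 in the microphyll, so the difference was not shared along that contig.

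At the last 3 the levels were ordered from stem to rhizophore tip to shoot tip to microphyll, and the values are given in that order. Contig 042498, from 21 to 3039, had 197 (187 to 207) in the stem, 46.8, 12 and 1.74 (0.921 to 2.57). Contig 042671, from 3767 to 4937, had 132 (126 to 139) in the stem, 81.5, 25.7 and 2.00 (0.270 to 3.72), the last on a wide interval. Contig 098376, from 2 to 4177, had 209.8 (201 to 219) in the stem, 20.6, 8.41 and 1.28 (1.02 to 1.53). Its rhizophore tip interval ran from 0 to 44.5, so that tip cannot be placed in the order. Over all 8 loci the rhizophore tip was above the microphyll by at least 2 at 7 and the shoot tip at 6. Other loci on the same contigs did not share the gap. On contig 098376, the locus from 7500 to 8037 had 355 in the microphyll and 311 in the stem. On contig 042498, the one from 3610 to 7471 was higher in the microphyll, with 296 against 165.

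**Figure D3:**
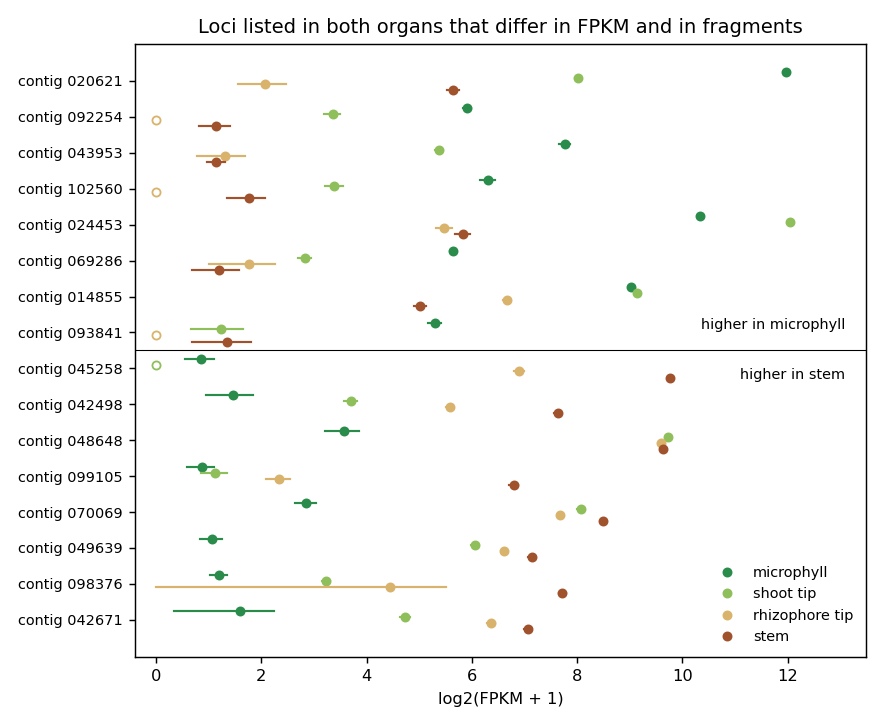
FPKM as log2(FPKM + 1) in the 4 libraries at the 8 concordant loci per direction described above, with the deposited 95% interval as a bar; open circles at 0 were not listed. In the upper 8 the microphyll (dark green) lies at least 3.95 above the stem (brown), and in the lower 8 the stem lies at least 5.48 above the microphyll, with the tips between them or beyond at different loci.

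Loci that only one of the organs listed made up 538 (40.8%) of the calls for the microphyll and 594 (31.7%) of those for the stem. The microphyll listed 1533 (6.87%) tested loci that the stem did not, and the stem listed 1257 (5.63%) that the microphyll did not. Not listed means that the authors' program assembled nothing there, and not that no read was present. Most of these loci were thinly covered, and 195 (12.7%) of the microphyll loci and 275 (21.9%) of the stem loci rested on at least 100 fragments. The groups differed in the tips. Of the stem loci, 1000 (79.6%) had a locus in a tip as well, 816 in that of the shoot and 889 in that of the rhizophore. Of the microphyll loci, 858 (56.0%) had one, 712 and 515 in the same order. The 675 that remained (44.0%) were listed in the microphyll alone of the 4 tissues, against 257 (20.4%) in the stem alone. Of all tested loci, the shoot tip left 7.86% unlisted and the rhizophore tip 10%. Both groups were thus listed in the tips less often than tested loci at large, and the microphyll loci less often than the stem loci. The microphyll loci were also the more thinly covered group.

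The 3 such loci of each organ with the most fragments include loci also listed in a tip and loci listed in a single tissue. In the microphyll, contig 103823 held a locus from 1 to 805 at an FPKM of 222 (217 to 228) from 6489 fragments, and the rhizophore tip had 89.9 there. On contig 084375, from 1 to 869, the microphyll was at 110.2 (107 to 114), the shoot tip at 58.7 and the rhizophore tip at 75.1. On contig 087360, from 1 to 653, it was 155 (150.1 to 161) in the microphyll, and no other tissue listed it. The stem was thus the one tissue without a locus on contig 084375, and the microphyll the one tissue with a locus on contig 087360.

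In the stem, contig 103377 held a locus from 15 to 9296 at an FPKM of 3072 (3041 to 3102) from 308339 implied fragments, the highest such number among tested loci of that library. The shoot tip had 10096 and the rhizophore tip 1033, and the microphyll had no locus there. The shoot tip value came mostly from a deposited locus from 2123 to 5162, at 9881 from 3841 fragments. The stem value came mostly from one from 22 to 2881, at 2567 from 306028 fragments. In all, the shoot tip had 5766 implied fragments, so FPKM and fragments ordered shoot tip and stem differently. The other tested locus of this contig, from 9497 to 10991, was not listed in the microphyll either. The stem had 4.33 there, the shoot tip 3.69 and the rhizophore tip 5.36. This contig was therefore unlisted as a whole in the microphyll. On contig 047042, from 697 to 1644, the stem was at 317 (309 to 324), the shoot tip at 559 and the rhizophore tip at 985. Its neighbour from 1811 to 4679 was at 114 in the microphyll and 119 in the stem, so here the gap stopped at the locus. The locus on contig 103824, from 69 to 935, had 230 (224 to 235) in the stem from 6429 fragments and was listed in no other tissue.

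The share of loci that differed depended on the level. No locus whose higher FPKM was from 1 to under 3 can reach a difference of 2, and 0 of 3464 did. From 3 to under 10 FPKM, 8.33% of 5316 loci were higher in the microphyll and 8.94% in the stem. From 10 to under 30 these shares were 4.53% and 8.32%. They then rose with each class, to 20.4% and 29.8% of the 181 loci at 1000 or more. The most abundant transcripts thus differed most often in FPKM. Among concordant loci this slope was much flatter. A widened interval in the higher organ removes a locus from this set, as given above. The part of widened intervals in the flatter slope was not tested, so it cannot be read as a trait of the loci. Their shares were 3.69% and 5.74% from 3 to under 10 FPKM, and 2.29% and 6.29% from 300 to under 1000. They were 5.52% and 7.18% at 1000 or more, where they rest on 10 and 13 loci.

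**Figure D4:**
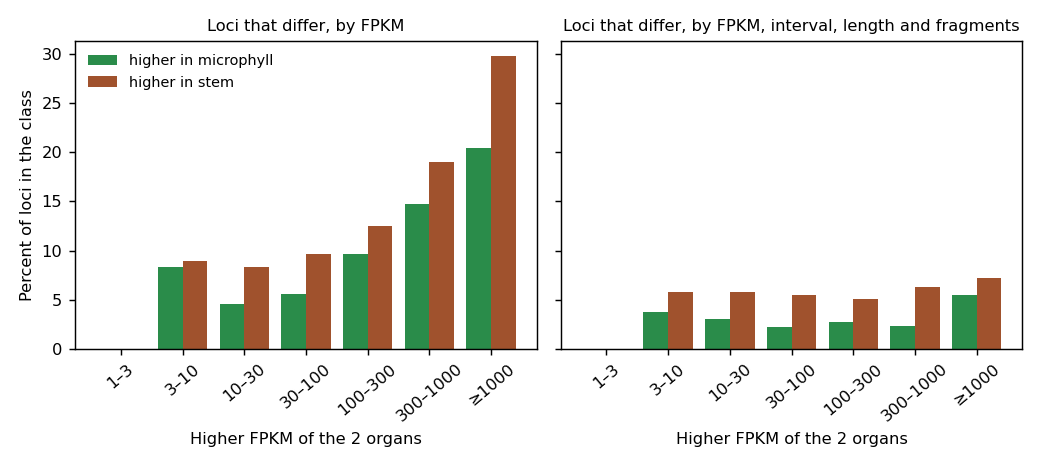
Percent of loci higher in the microphyll (green) and in the stem (brown), by the higher FPKM of the organs, for the FPKM call (left) and for concordant loci (right). On the left the bars climb to 20.4% and 29.8% in the highest class; on the right they stay below 8% in each class, and the stem bar is the higher one from 3 FPKM up.

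The loci on the microphyll side were shorter. Loci higher in the microphyll had a median merged length of 720 bp, those higher in the stem 1043 bp, and all tested loci 1105 bp. The share of concordant loci higher in the microphyll was 3.33% at 300 to under 600 bp and 3.36% at 600 to under 1200 bp. It was 2.16% at 1200 to under 2400 bp, 0.902% at 2400 to under 4800 bp and 0.759% from 4800 bp. On the stem side it was 4.35%, 5.51%, 5.30%, 3.97% and 3.37% in the same classes. The number of deposited loci inside a merged locus moved with the difference as well. The median difference was 0.41 at the 2098 loci, listed in both organs, that the microphyll table split into more pieces, 0.02 at the 15908 split equally and -0.51 at the 1529 that the stem table split more. The part of this splitting in the calls was not tested beyond the settings given in the closing section.

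The tips placed the loci of each organ in the rest of the plant. At loci higher in the microphyll the median FPKM was 2.19 in the stem, 4.75 in the rhizophore tip, 7.30 in the shoot tip and 27.7 in the microphyll. At loci higher in the stem it was 30.1 in the stem, 18.9 in the rhizophore tip, 11.8 in the shoot tip and 2.25 in the microphyll. Over all tested loci the 4 medians lay between 10.7 and 12.5. The rhizophore tip thus ranked next to the stem in both sets and the shoot tip next to the microphyll, as a description of loci that were chosen on the microphyll and stem values. Among concordant loci the order of the medians was the same, 18.1, 4.62, 2.04 and 0.811 for those higher in the microphyll, from microphyll to shoot tip, rhizophore tip and stem. For those higher in the stem it was 20.7 in the stem, 16.4 in the rhizophore tip, 9.95 in the shoot tip and 1.15 in the microphyll.

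**Figure D5:**
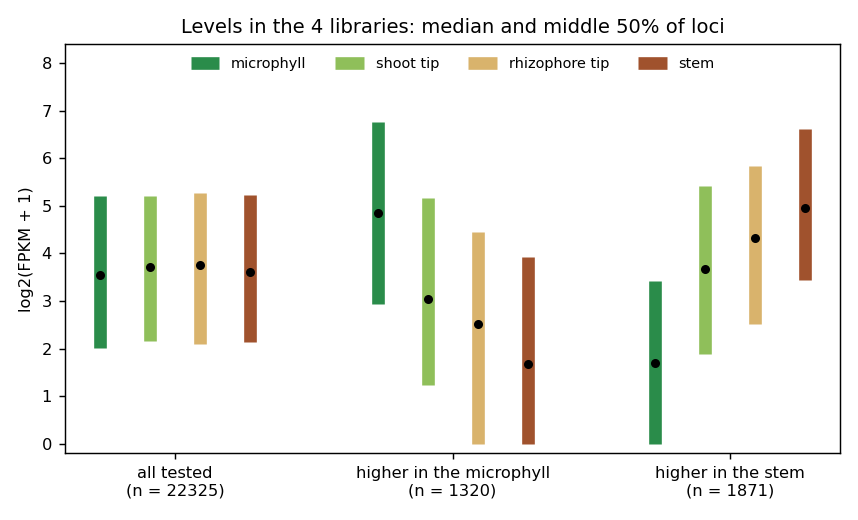
Median (point) and middle 50% (bar) of log2(FPKM + 1) in the 4 libraries over all 22325 tested loci, the 1320 higher in the microphyll and the 1871 higher in the stem; a bar that reaches 0 includes loci not listed in that library. The libraries are level over all loci, and in both called sets the shoot tip and the rhizophore tip lie between the organs.

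Counted locus by locus, both tips were more often nearer to the stem than to the microphyll. Over all tested loci this was so for 57.3% (shoot tip) and 64.3% (rhizophore tip). Among loci higher in the microphyll the shares were 61.0% and 75.2%, and among loci higher in the stem 53.5% and 65.3%. With a pseudocount of 5 the shoot tip share at stem loci was 46.59%, so there it was more often nearer to the microphyll. Only the rhizophore tip at microphyll loci thus stood more than 10 percentage points from the share over all loci. It did not list 403 (30.5%) of the loci higher in the microphyll, against 10% of all tested loci. It lay below both organs at 369 (28.0%) of these loci, close to the 28.5% of all tested loci. At loci higher in the stem it lay above both organs at 545 (29.1%) and below both at 152 (8.12%), against 34.8% and 28.5% of all tested loci.

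The sets also differed in how private they were. Of the loci higher in the microphyll, 442 (33.5%) were higher there by at least 2 than in each of the other 3 tissues. Of those higher in the stem, 377 (20.1%) were. The reverse held for the low organ. At 603 (32.2%) of the loci higher in the stem, the microphyll was lower by at least 2 than each of the other 3 tissues, while the stem was so at 137 (10.4%) of the loci higher in the microphyll.

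By the rule for named loci, the 5 with the largest FPKM differences in each direction were taken among loci listed once in each organ with intervals apart. All 10 turned out to hold a very short deposited locus in the higher organ. For the microphyll these are contigs 052828 (56 to 1198), 050856 (2 to 1306), 061884 (3 to 377), 093968 (79 to 483) and 083103 (164 to 605). Their FPKM was 415 to 832 in the microphyll and 0.602 to 3.65 in the stem, from deposited loci of 104 to 124 bp in the microphyll and 311 to 1244 bp in the stem. For the stem they are contigs 089831 (66 to 384), 048034 (218 to 531), 055533 (29 to 386), 036841 (3 to 366) and 105412 (1862 to 2191). Their FPKM was 4742 to 14836 in the stem and 1.52 to 5.92 in the microphyll, from deposited loci of 94 to 144 bp in the stem and 309 to 364 bp in the microphyll.

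The fragment numbers did not follow these differences. The microphyll set rested on 13 to 120.0 fragments in the microphyll and 11 to 29.0 in the stem, and the stem set on 9.59 to 34.2 in the stem and 13.3 to 48.7 in the microphyll. Scaled by library total, the log2 fragment difference lay between -0.49 and 1.97 for the microphyll set and between -1.28 and 1.71 for the stem set. None of the 10 reached 2 in its own direction. On contig 055533, for example, the stem FPKM of 14836 came from 13 fragments over 94 bp, and the microphyll FPKM of 5.92 from 48.7 fragments over 343 bp. At these 10 loci the FPKM differences were thus not matched by the number of fragments.

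The most abundant loci were only partly shared. Of the 100 loci with the highest FPKM in each organ, 34 were in both lists. Of the microphyll list 37 were called higher in the microphyll and 1 in the stem, and of the stem list 46 were called higher in the stem and 0 in the microphyll. In the class of 1000 FPKM or more, 20.4% and 29.8% were called in these directions, and 5.91% and 8.38% of all tested loci. Each list was taken on the FPKM of its own organ, which favours calls for that organ. The FPKM of the stem was slightly more concentrated. The 10 highest loci held 12.4% of its summed FPKM over tested loci and 9.88% in the microphyll, and 50% of the sum lay in 661 loci in the stem and 817 in the microphyll.

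Of the 4 highest loci of each organ by FPKM, 2 were in both lists. The highest in the microphyll was on contig 063554, from 2054 to 2573, at 25767 (24700 to 26835), with 22049 (21133 to 22964) in the stem, and the tips at 7692 (shoot) and 2002 (rhizophore). Its difference was 0.22, with 2330 implied fragments in the microphyll and 2322 in the stem. The shoot tip had 2282 implied fragments and the rhizophore tip 2015, at much lower FPKM. The deposited loci were of similar length, 475 bp (microphyll), 485 bp (stem), 480 bp (shoot tip) and 448 bp (rhizophore tip). The implied fragments thus did not follow the FPKM, and they cannot be read as the depth of this locus. This locus was thus among the most abundant in both organs alike. The highest in the stem was on contig 067981, from 1606 to 2340, at 55085 (23161 to 87009), with 11044 (5983 to 16104) in the microphyll, but from only 11.9 and 19.1 fragments over 182 and 184 bp. The next in the microphyll, on contig 044188 from 1 to 404, had 22324 (7910 to 36739) from 9.59 fragments over 92 bp and 7979 (3167 to 12790) in the stem from 11. The remaining microphyll locus was on contig 048097, from 1 to 825. Its FPKM of 11844 against 21.9 in the stem came almost wholly from a deposited locus of 168 bp, at 11787 and 410 fragments, and its 2 longer microphyll loci had 14.2 and 42.7. In fragments it differed by 0.80. The remaining stem loci are those on contigs 048034 and 055533, given above.

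Ranking by fragments instead of FPKM, a choice made after the values were seen, gave longer loci. Loci with widened intervals stand too low in it. In the microphyll, the first 5 include the locus on contig 020621, given above, and one on contig 095801, from 68 to 1351, at 2355 (2342 to 2369) against 809 (799 to 818) in the stem. Contig 065857, from 12 to 1119, had 2157 (2143 to 2170) against 764 (754 to 773), and contig 063078, from 61 to 1884, 1259 (1251 to 1266) against 614 (608 to 620.0). These were 2.91-fold, 2.82-fold and 2.05-fold higher in the microphyll, which is below the limit for a call. On contig 102670, from 36 to 5563, the FPKM was lower in the microphyll, at 539 (536 to 542) against 1025 (1007 to 1042). Its implied fragments ran the other way, 117747 against 29091, a scaled log2 difference of 1.83. In the rhizophore tip all 5 lay between 3.22 and 140.7, below both organs at each locus. In the shoot tip they ran from 93.8 to 4066.

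In the stem, the first 5 include the locus on contig 103377, given above, and one on contig 080385, from 1401 to 4669, at 1937 (1925 to 1949) against 476 (472 to 479) in the microphyll. Contig 058158, from 61 to 2943, had 1329 (1322 to 1336) against 162 (154 to 169.9), with the shoot tip at 209.6 and the rhizophore tip at 239.7. Contig 045364, from 26 to 2104, had 1440 (1431 to 1449) against 210.1 (201 to 219), with the shoot tip at 253 and the rhizophore tip at 285. These were 4.07-fold, 8.21-fold and 6.85-fold higher in the stem, and at the latter pair both tips were close to the microphyll. Contig 043046, from 405 to 4528, had 2084 (2069 to 2099) against 526 (519 to 532) and missed the limit, at a difference of -1.99. On contig 045364 the deposited loci were 2035 and 2072 bp long, while the implied fragments were 108306 in the stem and 2094 in the microphyll. The fragment ratio was thus far above the 6.85-fold FPKM ratio at nearly equal length, and the fragment difference of -5.88 overstates the difference there. On contig 058158, with deposited loci of unlike length, the fragment difference was -6.69 and the FPKM difference -3.03.

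A few further concordant loci stood among those with the most fragments. In the microphyll, contig 014765, from 1 to 633, had 3151 (3128 to 3174) against 567 (542 to 593) in the stem, with the shoot tip at 2998 and the rhizophore tip at 933. Contig 046906, from 1207 to 3441, had 1245 (1235 to 1256) against 282 (270.0 to 295), with the shoot tip at 1836 and the rhizophore tip at 87.2. The shoot tip was close to the microphyll or above it at both. In the stem, contig 090357, from 844 to 3502, had 853 (847 to 859) against 104 (99.3 to 109), with the shoot tip at 878 and the rhizophore tip at 966. Contig 066142, from 1 to 3828, had 1200.2 (1189 to 1212) against 285 (269 to 302), with the shoot tip at 131 and the rhizophore tip at 60.5. The former was low in the microphyll only, and at the latter both tips lay below the microphyll. The locus on contig 066142 joined unlike parts. In the stem it had 909 from 1 to 1527 and 292 from 1681 to 3828. The microphyll had 86.3 from 1 to 1822, 13.9 from 445 to 1822 and 185 from 1939 to 3807. Its gap thus lay mainly in the first part. On contig 014765 the deposited loci were 633 and 630 bp long and the FPKM ratio 5.55, while the implied fragments were 73211 and 1942. Its fragment difference of 5.05 thus overstates the difference. At contigs 046906, 090357 and 066142 the fragment difference also exceeded the FPKM difference. The values were 4.46 against 2.14, -5.62 against -3.02 and -4.55 against -2.07.

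Some abundant loci hardly differed at all. At least 100 FPKM in all 4 libraries was reached by 802 loci, of which 569 (70.9%) differed by less than 1 between microphyll and stem. The requirement on all 4 libraries itself leaves out loci that are low in one organ. Their median range over the 4 tissues was 1.23, and at 306 (38.2%) the range was under 1. The most even was on contig 048159, from 102 to 1194, with the microphyll at 202 (198 to 207), the stem at 201 (191 to 211), the shoot tip at 221 and the rhizophore tip at 211. Its shoot tip interval ran from 0 to 23530, so that value is not precise. On contig 097567, from 1 to 959, the levels were 245 (231 to 258), 235 (223 to 248), 222 and 246 in the same order. On contig 103471, from 1 to 3005, they were 314 (299.5 to 329), 303 (286 to 319), 334 and 339. At these 3 loci the intervals of microphyll and stem overlapped.

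Few contigs held more than 1 called locus. As 5.91% and 8.38% of all tested loci were called in the 2 directions, few contigs could hold 2 calls. Whether neighbouring loci differ together was not tested. At least 2 tested loci were on 2240 contigs, and 639 (28.5%) of these held a called locus. Of the 2240 contigs, 6 held at least 2 loci higher in the microphyll and none higher in the stem. A further 34 held at least 2 higher in the stem and none in the microphyll, and 31 held both directions. On contig 043884, the pair with the widest gap, the locus from 530 to 1730 had an FPKM of 525 (502 to 548) in the stem and 3.97 (3.17 to 4.77) in the microphyll, with the shoot tip at 65.2 and the rhizophore tip at 8.87. Its neighbour from 2026 to 3465 was at 5.89 (5.10 to 6.67) in the microphyll and not listed in the stem. On contig 046607, the loci from 115 to 4168 and from 4369 to 7739 had 14.1 and 19.9 in the stem and were not listed in the microphyll. The third, from 7861 to 10232, had 1828 (1719 to 1937) in the microphyll and 52.6 (50.1 to 55.2) in the stem. That microphyll value came from a deposited locus of 284 bp with 1130.0 fragments, and the stem value from one of 2366 bp with 1710.0 fragments, so in fragments the locus was slightly higher in the stem, by 0.79.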

How the data were processed

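The authors sequenced RNA of microphyll, stem, shoot tip and rhizophore tip as paired-end libraries, 1 per tissue. The authors trimmed the first 10 bases, aligned the reads with TopHat to contigs assembled with ABySS, and ran Cufflinks. The study reports the total reads of each library, more for leaf than for stem. They deposited 1 table per library with FPKM and its interval for each locus. No read counts per locus were given, so the depth at a locus is known only through the interval widths.

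Here loci overlapping by at least 1 bp were merged, FPKM was summed per library, and a pseudocount of 1 was added before the logarithm. Log2 differences of low loci are therefore understated. Bounds were summed likewise. To obtain implied fragments, 2 FPKM was divided by the gap to the upper bound and squared, then summed per merged locus. Intervals and fragments cover error inside a library and not the variation between plants. Some intervals were wider than counting error alone would make them, and there the implied fragments are too low. The steps ran in Python 3.11.15 with numpy 2.4.6, pandas 2.3.3, scipy 1.17.1 and matplotlib 3.10.9, and were tested on simulated data. No test was possible with 1 library per organ.

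The comparison and its limits were chosen with earlier results of these data known. Loci were named by this rule. The 5 largest differences in each direction were taken among loci listed once in each organ with intervals apart, and the 3 loci of each organ with the most fragments among those not listed in the other. To these were added the 4 highest FPKM values in each organ, the 2 contigs with the widest gap between directions, and the 3 most even loci of at least 100 FPKM in all 4 libraries. Other loci named were chosen after their values were seen. Alternatives were other pseudocounts, filters, lengths, scalings, overlaps, summaries, call limits and a floor of 11 fragments. No column of the tables was left unassigned to a library.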

Additional observations from a re-analysis of the deposited data

Results flagged for a closer look

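Loci shorter than 300 bp were outside the comparison. Among 4394 such merged loci that reached an FPKM of 1 in one of the organs, 1423 were higher in the microphyll and 746 in the stem by FPKM. With intervals apart and a fragment difference of at least 2 the same way, 128 of the 4394 were higher in the microphyll and 121 in the stem. Among tested loci, concordant ones made up 2.49% and 4.76%, with a length condition that was not applied here. The share of short loci was thus close to this for the microphyll and lower for the stem. The data that the comparison left out hold such loci too, but no more of them than that. The 3 with the most fragments were higher in the microphyll. On contig 074740, from 43 to 289, the microphyll had an FPKM of 4507, the stem 832, the shoot tip 5463 and the rhizophore tip 30863. Contig 068042, from 511 to 752, had 3803, 698, 4871 and 23801, and contig 010234, from 1 to 221, had 4171, 601, 5193 and 26846, in the same order. These 3 loci had nearly the same proportions in the 4 tissues and the rhizophore tip highest. Whether they are copies of one sequence was not tested.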

How the results depend on the processing

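The alternatives run for single loci were the pseudocounts of 0.1 and 5 and the library rescalings, and no named locus changed direction under them. A pseudocount cannot reverse a direction. The rescalings shift the log2 ratio of microphyll to stem by 0.109 and -0.004, so they could reverse only loci with nearly equal levels. These alternatives therefore could not show how firm the directions are. On the fragment scale some named loci pointed the other way, as given above. A pseudocount of 0.1 gave 2566 loci higher in the microphyll and 2869 in the stem, and one of 5 gave 540 and 895. A limit of 1 gave 4902 and 4883, and one of 3 gave 388 and 736. The numbers were 877 and 1396 at an FPKM of at least 10, 2743 and 2617 with no minimum length, 756 and 1285 from 600 bp, 865 and 1268 with at most 1 locus per library, and 782 and 1277 for loci listed in both organs. The intervals, own length and fragments, an alternative added after the data were seen, gave 557 and 1062. With no minimum length and at a limit of 1 the microphyll had more, and under the other settings the stem had more.

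The median difference was 0.085 with no minimum length, 0.013 from 600 bp, 0.014 with a length-weighted mean, 0.066 without deposited loci under 300 bp (added after the data were seen) and 0.137 with libraries rescaled to the same sum, a shift of 0.109 that left 1455 and 1720 loci. Spearman's correlation was 0.794 with no FPKM filter, 0.581 at an FPKM of at least 10, 0.659 with no minimum length, 0.793 from 600 bp, 0.763 with the length-weighted mean, 0.787 for loci listed in both organs and 0.758 without deposited loci under 300 bp, and Pearson's was 0.752. Loci listed in the microphyll and not the stem were 2382 with no FPKM filter, 130 at an FPKM of at least 10, 2935 with no minimum length and 526 from 600 bp. Those listed in the stem and not the microphyll were 214 at an FPKM of at least 10 and 649 from 600 bp. The cause of these moves was not tested where the setting does not itself pass more or fewer loci.

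At loci higher in the microphyll, the shoot tip was nearer the stem at 57.79% and the rhizophore tip at 71.40% with a pseudocount of 0.1, and at 63.89% and 78.15% with one of 5. At loci higher in the stem the shares were 58.77% and 69.12% with the low pseudocount, and 46.59% and 57.88% with the high one. No paired analysis was possible because each organ has 1 library, so leaving out a replicate was not possible either. Depth limits the loci with few fragments, and a locus not listed may still be transcribed.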

Other observations

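A pattern among loci listed in one organ concerned the contig numbers, which are the authors' labels for pieces of their draft assembly. It was seen in the data and is given as values. With at least 1000 implied fragments, 13 loci were listed in the microphyll and not the stem, and 27 in the stem and not the microphyll. Of the 351 possible pairs between these groups, 2 had contig numbers at most 2 apart, and 1 pair was 3 to 100 apart. In the first pair, contig 087360, from 1 to 653, had an FPKM of 155 in the microphyll and was listed in no other tissue, while contig 087358, from 1 to 873, was not listed in the microphyll and had 140 in the stem, with the shoot tip at 115 and the rhizophore tip at 109. In the other, contig 103823, from 1 to 805, had 222 in the microphyll and 89.9 in the rhizophore tip, and contig 103824, from 69 to 935, had 230 in the stem alone. The contigs of each pair were thus listed in different tissues, and their levels in microphyll and stem were close. Whether the paired contigs hold near-identical sequence was not tested, because the contig sequences were not used here. Lower limits brought mainly pairs further apart. From 300 fragments, 2 of 6390 possible pairs were at most 2 apart and 30 were 3 to 100 apart. From 100 fragments these were 3 of 53625 and 178. The pattern thus rests on very few pairs and on the highest limit.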
